A study of Mus musculus with 12 samples.

Results

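H3K4me3, the trimethylated lysine 4 of histone H3 found at active and poised promoters, was examined at 10 Wnt signalling genes of the dorsal forebrain: Wnt2b, Wnt3a, Wnt5a, Wnt7a, Wnt7b, Wnt8b, Lef1, Axin2, Rspo2 and Rspo3. These 10 were named by symbol among the 21951 protein-coding genes of the annotation. The rule that names them uses no measured value, but they were chosen with earlier results of these data known. For each gene, the peaks within 5 kb of any annotated transcription start site (TSS) were counted and measured, and the 4 ligands of the cortical hem (Wnt2b, Wnt3a, Wnt5a and Wnt8b) were set against the other 6. These other 6 are the broadly used ligands Wnt7a and Wnt7b, the nuclear effector Lef1, the target Axin2 and the R-spondins Rspo2 and Rspo3.

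Tissue was microdissected from wild-type C57BL/6J mouse embryos as the medial (MGE), lateral (LGE) and caudal (CGE) ganglionic eminence and the cortex (CTX), pooled over embryos, and profiled in bulk by CUT&Tag, in which an antibody directs a transposase to chromatin that carries the mark. The study's text gives the age as E12.5, while the sample protocol names both E12.5 and E14.5, and it describes the cortex as somatosensory without naming the hem. The 12 samples, 3 from MGE, 2 from LGE, 4 from CGE and 3 from CTX, came from 2 replicates per region. The replicates were merged before peaks were called. Each region is therefore 1 list of broad peaks with no replicate error, no test between regions was possible, and a difference between lists cannot be set against the spread between replicates. In bulk tissue, fewer cells of a type and less mark per cell cannot be told apart.

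Wnt ligands are secreted lipid-modified glycoproteins that bind Frizzled receptors, and in the canonical branch this keeps β-catenin from being degraded, so that it can act with TCF/LEF factors on target genes. The cortical hem, a strip at the medial edge of the cortical primordium, is known as a source of several Wnt ligands that pattern the adjacent hippocampal field. Lef1 is a TCF/LEF factor, Axin2 is a feedback inhibitor often read as a reporter of canonical signalling, and R-spondins are secreted proteins that raise Wnt sensitivity through Lgr receptors.

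The promoters of Wnt8b, Wnt3a and Wnt7a are shown here as the 250 bases before the RefSeq start (build GRCm38.p6). They are printed 5′ to 3′ on the gene's strand, with every CG dinucleotide in capitals. Wnt8b (chr19:44493222-44493471, plus strand) and Wnt3a (chr11:59290752-59291001, minus strand) are shown because they were the members with a high lead in CTX, and Wnt7a (chr6:91411354-91411603, minus strand) because its peak had nearly the same width in all 4 lists.
Wnt8b: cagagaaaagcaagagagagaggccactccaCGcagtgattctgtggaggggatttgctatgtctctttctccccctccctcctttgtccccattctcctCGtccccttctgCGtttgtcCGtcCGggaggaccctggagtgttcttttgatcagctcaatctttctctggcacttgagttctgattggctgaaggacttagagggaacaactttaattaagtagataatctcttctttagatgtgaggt
Wnt3a: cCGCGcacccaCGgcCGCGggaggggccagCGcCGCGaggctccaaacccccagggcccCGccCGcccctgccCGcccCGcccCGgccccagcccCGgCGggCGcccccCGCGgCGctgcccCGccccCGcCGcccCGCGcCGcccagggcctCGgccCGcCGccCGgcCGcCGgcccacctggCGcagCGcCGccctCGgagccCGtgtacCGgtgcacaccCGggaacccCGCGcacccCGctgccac
Wnt7a: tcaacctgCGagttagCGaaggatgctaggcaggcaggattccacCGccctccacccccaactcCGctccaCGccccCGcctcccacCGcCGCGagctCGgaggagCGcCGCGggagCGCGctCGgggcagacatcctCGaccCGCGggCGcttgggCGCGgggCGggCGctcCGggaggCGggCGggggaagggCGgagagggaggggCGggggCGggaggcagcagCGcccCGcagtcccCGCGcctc

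The Wnt8b promoter held 5 CpG, with an observed-to-expected CpG ratio of 0.342 and 48.4% GC, and it lay under a peak in CTX only. The Wnt3a promoter held 41 CpG at a ratio of 0.927 and 87.6% GC, and lay under a peak in none of the 4 lists. The Wnt7a promoter held 34 CpG at a ratio of 0.905 and 77.6% GC, and lay under a peak in all 4. Over 32851 RefSeq promoters of this length the medians were 6 CpG, a ratio of 0.374 and 52.4% GC. Of the 16309 promoters with at most 5 CpG, 4.46% lay under a CTX peak, while of the 1846 with 30 to 45 CpG, 92.8% did. The marked Wnt8b promoter and the unmarked Wnt3a promoter were therefore each in the minority of their CpG class in CTX, where the bounds of both classes were chosen after the values were seen. Wnt3a had more GC than 99.96% of promoters. Of the 47 promoters with at least 85% GC, 76.6%, 85.1%, 89.4% and 76.6% lay under a peak in MGE, LGE, CGE and CTX. The bound of 85% was also chosen after the values were seen, and the part of GC content in the Wnt3a values was not tested. The RefSeq promoter table matched 6 of the 10 members, and Wnt5a, Wnt7b, Rspo2 and Rspo3 were the others.

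All 10 genes had a peak in CTX, and 9 had one in each of the 3 ganglionic eminence (GE) lists, where the gene without a peak was Wnt3a each time. Among all protein-coding genes, the share with a peak was 65%, 64.2%, 64.6% and 63.8% in MGE, LGE, CGE and CTX. A peak in all 4 lists was found for 9 members, against 61.3% of protein-coding genes, and a peak in CTX alone for Wnt3a, against 0.829%, while 32.1% had no peak in any list. The members held 15, 13, 11 and 23 of the 25339, 17284, 17752 and 21442 peaks in MGE, LGE, CGE and CTX. At least 2 peaks were found at 4, 4, 2 and 7 members, taken in the order MGE, LGE, CGE, CTX, against 24.8%, 16.5%, 17.3% and 22.4% of the genes with a peak in those lists. The 37 annotated TSSs of the 10 genes lay under a peak 17 times in the MGE and LGE lists, 19 times in CGE and 22 times in CTX, with 14 under a peak in every list and 13 in none. The share of all protein-coding TSSs under a peak was not computed, so these TSS counts have no background beside them. A peak over at least 1 of its TSSs in every list was found for 8 members, all but Wnt3a and Wnt8b, against 54.7% of protein-coding genes.

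**Figure D1:**
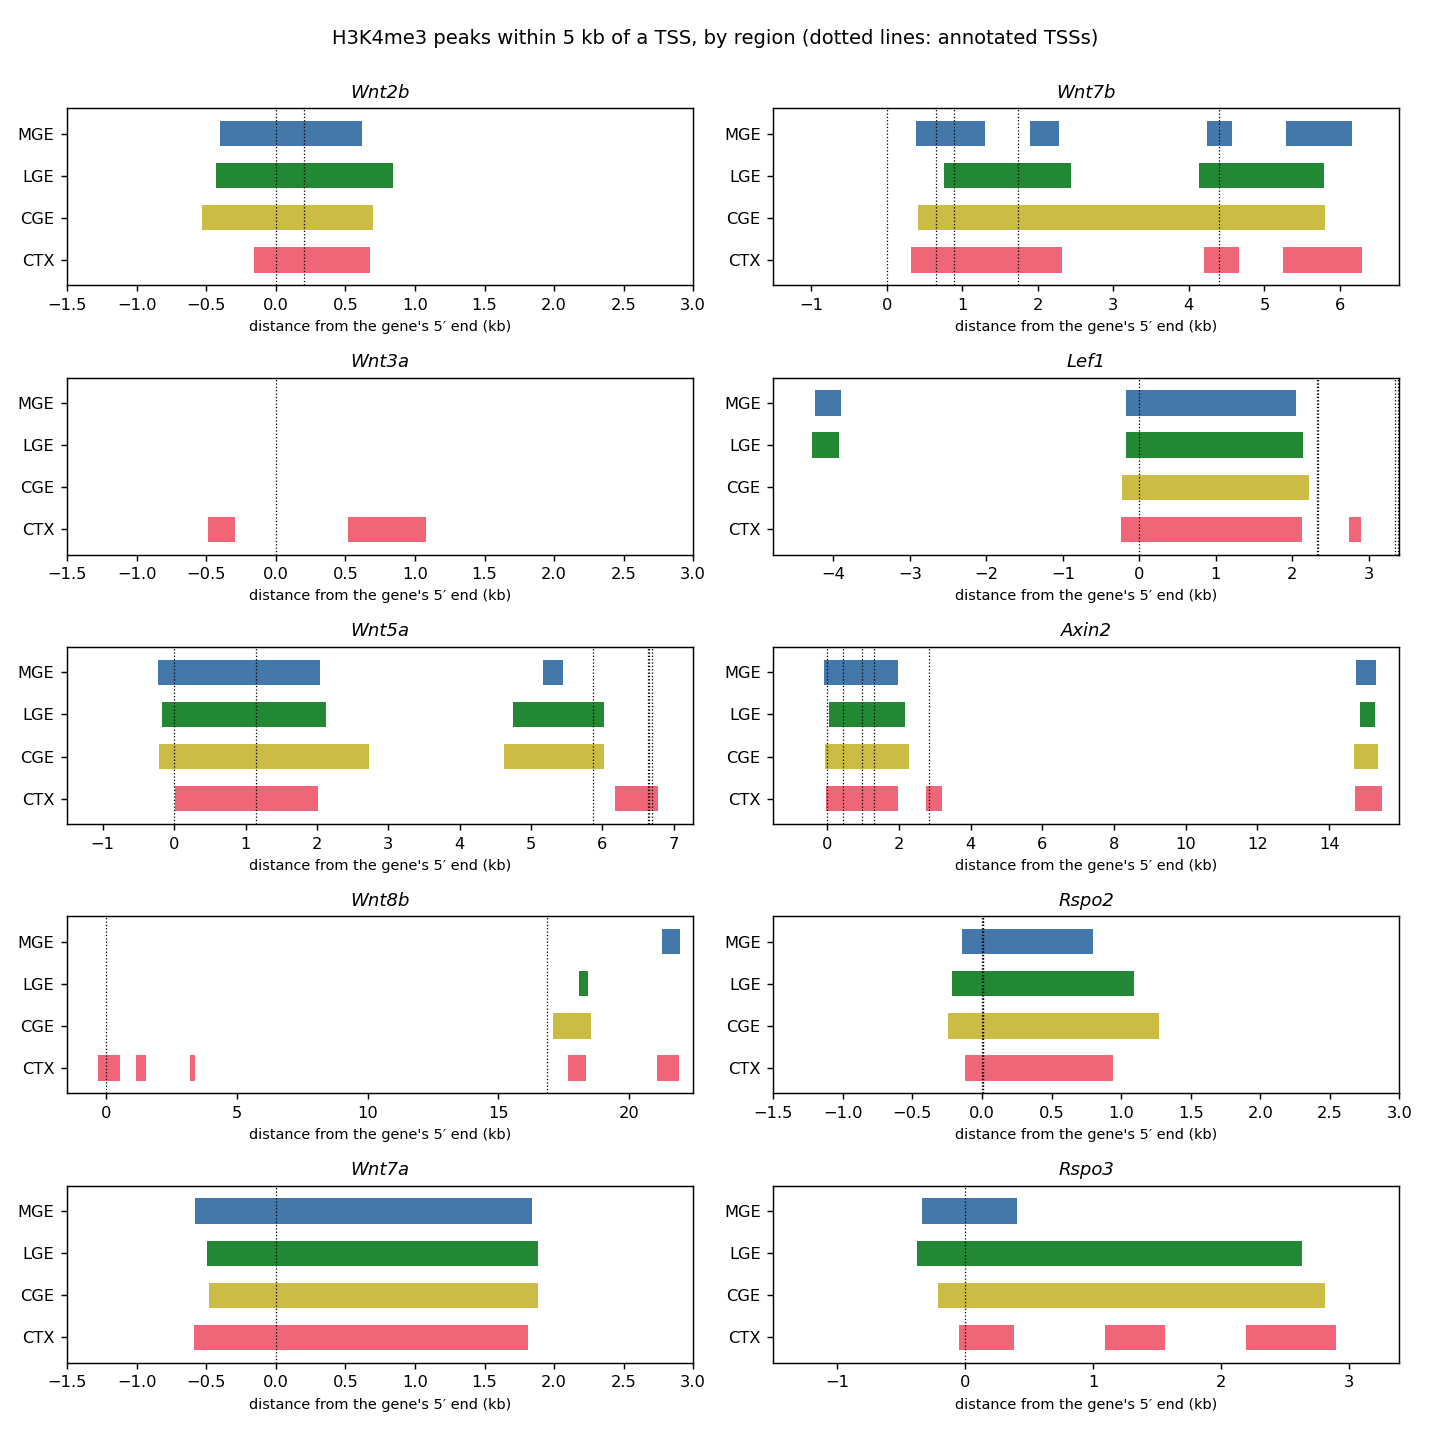
Position of each H3K4me3 peak counted for the 10 genes, drawn as bars on 4 tracks (MGE, LGE, CGE, CTX) against the distance from the gene's 5′ end in kb along its direction of transcription, with dotted lines at annotated TSSs and a separate scale for each gene. Wnt3a has bars on the CTX track alone, the 5′ end of Wnt8b is covered on the CTX track alone, and Wnt7a has a bar of nearly the same width (2369 to 2427 bp) on every track.

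The lists differed in ways that bear on every comparison of width. MGE and CTX held more and shorter peaks (25339 and 21442, with median widths of 563 and 701 bp) than LGE and CGE (17284 and 17752, with 1168 and 1240 bp), and CGE had the most covered bases at 72.7% of the genes with a peak. Sequencing depth differed too. In the paper's figures for each replicate, CGE was the deepest and MGE the shallowest of the ganglionic eminences. The part of depth in these differences was not tested. The covered bases of a gene, the bases under peaks within 5 kb of its TSSs, were therefore also given as a percentile, the share of protein-coding genes with fewer covered bases in the same list. A gene without a peak stood at 17.5 to 18.1 on this scale. The 8 cortex markers (Emx1, Pax6 and others) all had a peak in every list, with a median percentile of 93.4 in CTX, 95.3 in LGE, 94.3 in CGE and 40.6 in MGE, so marks at cortical genes did not set CTX apart from LGE and CGE. The 6 GE markers (Dlx1, Gsx2 and others) had a median of 63.1 in CTX against 95.8 to 96.5 in the GE lists. For the MGE markers, 1 of 3 (Lhx6) had a peak in CTX.

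Wnt8b, a ligand of the cortical hem, had the largest range of percentiles among the members. Its covered bases numbered 586, 355, 1417 and 2827 in MGE, LGE, CGE and CTX, from 1, 1, 1 and 5 peaks. CTX was the highest list and LGE the lowest. As percentiles these were 44.5, 36.5, 64.3 and 98.2, so CTX stood 33.9 points above CGE, the next list. The gene lies on the plus strand of chromosome 19, at chr19:44493472-44514273 in GRCm38. Its 5′ end was covered in CTX alone, by a peak of 840 bp (chr19:44493165-44494004) reaching from 307 bp before to 532 bp after the start, with 307 bases outside the gene, 197 in exon and 336 in intron. This peak had a fold enrichment of 4.38 over the caller's background and a −log10 q of 7.99, at percentiles 37.0 and 48.6 of the CTX list. A peak over a TSS in CTX and in no other list was found for 0.328% of protein-coding genes. A pair of short CTX peaks of 356 and 183 bp followed in the intron, starting 1146 and 3209 bp from the 5′ end. These were weak, with −log10 q of 2.45 and 1.98.

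The GE peaks counted for Wnt8b all lay at the other end of the gene, around an internal annotated start of a processed transcript 16849 bp from the 5′ end. They were a CGE peak of 1417 bp starting 17105 bp in, an LGE peak of 355 bp wholly in coding sequence, and an MGE peak of 688 bp beyond the gene's 3′ end. CTX had peaks of 677 and 829 bp in these same stretches. The LGE peak was weak, with a −log10 q of 1.80, and a minimum of 2 in every list removed it. The Wnt8b-marked bases in CTX were thus spread over both ends, and those in the GE lists were at the 3′ end. With only the gene's 5′ end as the reference point, Wnt8b had no peak in any GE list and stood at a percentile of 84.5 in CTX. With the widest peak in place of covered bases, the order turned, with 57.4 in CTX against 67.3 in CGE.

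Wnt3a, a canonical ligand whose loss removes the hippocampus, had no peak within 5 kb of its TSS in MGE, LGE or CGE and 747 covered bases in 2 peaks in CTX. Its percentiles were 17.5, 17.9 and 17.7, the level of an unmarked gene, and 50.6 in CTX. By covered bases the CTX value sits at the middle of the protein-coding genes. By this measure the lead of 32.7 points is that of a modestly marked gene over an unmarked one. On the minus strand of chromosome 11 (gene chr11:59248033-59290752), the peaks lay on either side of the start with 815 bp between them. The upstream peak of 191 bp (fold 3.89, −log10 q 2.74) ended 296 bp before the TSS, and the other, of 556 bp (fold 3.82, −log10 q 2.66), lay wholly in the intron from 520 bp after it. Both were among the weaker CTX peaks, with −log10 q at percentiles 22.5 and 21.5 of the list, and neither lay over the TSS. The sequence of the upstream peak (chr11:59291048-59291238, minus strand, CG in capitals) is shown because it is the peak nearest to the unmarked promoter printed above.
Wnt3a upstream peak: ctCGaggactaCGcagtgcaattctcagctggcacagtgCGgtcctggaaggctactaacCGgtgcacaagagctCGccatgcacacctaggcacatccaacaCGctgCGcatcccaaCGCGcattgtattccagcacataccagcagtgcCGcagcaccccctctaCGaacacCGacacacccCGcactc

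This stretch held 13 CpG in 191 bases at 59.7% GC, against 41 CpG and 87.6% GC in the adjoining promoter. Wnt3a fell below a lead of 30 points when peaks under 243 bp were dropped from every list, which removed the upstream peak and gave 43.8 in CTX, and it had no peak at all when a peak had to lie over a TSS. Its rank in CTX was higher, at 84.7, when peaks less than 1 kb apart were joined. By the covered share of the window it was 74.9. Ranked only among genes with a CTX peak, Wnt3a was lower, at 22.6. Its level in CTX therefore depended on the measure.

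Wnt5a (chr14:28504750-28527448, plus strand), a ligand known mainly for non-canonical signalling, was broadly covered in every list. It had 2549, 3552, 4332 and 2611 covered bases in MGE, LGE, CGE and CTX, always in 2 peaks, and percentiles of 97.5, 97.9, 98.7 and 97.5. The lists therefore differed by 1.17 points in rank although covered bases differed 1.70-fold. The widest peak, 2012 to 2941 bp over the 5′ part of the gene, shared 2012 bp among all 4 lists. It was shallow for its lists, with folds of 3.20, 3.24, 3.34 and 3.53 at percentiles between 8.71 and 16.3. In CTX it began 5 bp after the annotated 5′ end, so that this TSS lay under a peak in the 3 GE lists and not in CTX. The other peak differed in place: in LGE and CGE it covered an internal start at 5868 bp, and in CTX it covered 3 internal starts at 6640, 6655 and 6701 bp, of which the start at 6655 bp belongs to a protein-coding transcript. That CTX peak was weak, with a −log10 q of 1.28, and it also lay over the start of the non-coding Gm2670.

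Wnt2b (chr3:104945272-104961921, minus strand), which signals through β-catenin, had 1 peak over both of its TSSs in each list, of 1023, 1267, 1229 and 832 bp in MGE, LGE, CGE and CTX. Its percentiles were 66.4, 61.3, 54.8 and 54.8, highest in MGE and about equal in CGE and CTX, and CTX stood 11.7 points below MGE (−11.7). The 4 peaks shared 777 bp. In CTX its −log10 q was 1.93, and a minimum of 2 in every list removed it.

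**Figure D2:**
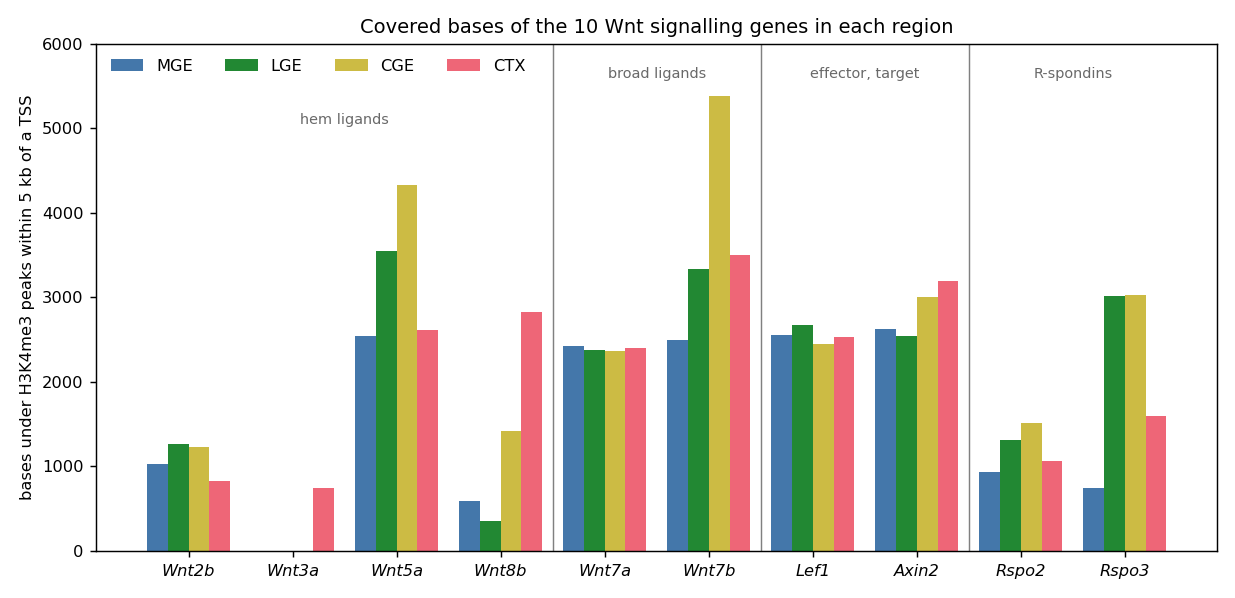
Bases under H3K4me3 peaks within 5 kb of a TSS (vertical axis, from 0) for each of the 10 genes in MGE, LGE, CGE and CTX (bar colours), with 1 merged list per region and so no error bars. Wnt8b and Wnt3a have their tallest bars in CTX (2827 and 747 bases), Wnt7b in CGE (5387), and the 4 bars of Wnt7a are nearly level.

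Of the broadly used ligands, Wnt7a (chr6:91363981-91411363, minus strand) had the least variable peak width among the members with a peak in every list. It had 1 peak in each list, of 2427, 2378, 2369 and 2402 bp in MGE, LGE, CGE and CTX, over the promoter printed above, and 2298 bp were common to all 4. The most covered list exceeded the least by 1.02-fold. Its fold enrichment varied more, from percentile 17.4 in CTX to 47.7 in CGE. LGE and CGE peaks were wider in general. The nearly constant covered bases of Wnt7a therefore stood at the percentiles 96.9, 91.7, 89.6 and 96.5 in MGE, LGE, CGE and CTX. The non-coding Gm30437 has its start under the same peak. The 2 internal TSSs of Wnt7a, 46266 and 46292 bp from the 5′ end, were under no peak.

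Wnt7b (chr15:85535437-85582473, minus strand), which lies among the more broadly covered genes in every list, had 2499, 3337, 5387 and 3503 covered bases in MGE, LGE, CGE and CTX. The corresponding percentiles were 97.3, 97.2, 99.5 and 99.3, a range of 2.29 points. In CGE this was 1 peak of 5387 bp, at percentile 99.9 of width, over 4 of the 6 annotated TSSs. The same stretch was broken into 4 peaks in MGE, 2 in LGE and 3 in CTX, with a widest peak of 909, 1676 and 1990 bp. The widest peaks were shallow for their lists, with fold enrichments between the percentiles 1.44 and 4.47. The 5′-most TSS was under no peak in any list, and the start of the non-coding AU022754 lies in the covered stretch.

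Lef1 and Axin2, a nuclear effector and a target of canonical signalling, were near the top of every list. Lef1 (chr3:131110471-131224356, plus strand) had 2560, 2673, 2446 and 2532 covered bases in MGE, LGE, CGE and CTX, at percentiles 97.5, 94.2, 90.4 and 97.2. The main peak over the 5′ end was 2223 to 2446 bp wide, and its narrowest form, that of MGE, lay within the other 3. What differed were small accessory peaks: MGE and LGE had peaks of 337 and 356 bp about 4 kb upstream, and CTX a peak of 159 bp in the intron. The start of the non-coding Gm43352 lies under the main peak.

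Axin2 (chr11:108920349-108950783, plus strand) had 2625, 2540, 3009 and 3192 covered bases in MGE, LGE, CGE and CTX, and percentiles of 97.7, 93.2, 94.8 and 98.9. CTX was the highest list by both measures, with a lead of 1.19 points over MGE, which changed sign in 3 of the 15 alternative settings. Its main peak of 2000 to 2348 bp covered 4 TSSs in MGE, CGE and CTX and 3 in LGE. CTX alone had a further peak of 465 bp over a protein-coding start at 2832 bp (fold 2.04, −log10 q 2.04). All 4 lists had another peak in the intron about 15 kb from the 5′ end, of 559, 425, 661 and 727 bp in MGE, LGE, CGE and CTX, which lay over no annotated TSS. In CTX this intronic peak had a fold of 5.89, above the 3.96 of the main peak. Its fold was 4.99 against 4.23 in MGE and 4.48 against 4.16 in CGE. In LGE its fold was lower, at 3.46 against 4.50. By −log10 q, the main peak was above the intronic peak in every list. The main peak had 10.9 against 4.96 in MGE, 163 against 9.17 in CGE and 18.8 against 11.3 in CTX. The intronic peak of LGE was weak, with a −log10 q of 2.52 at percentile 6.78 of its list. The central 300 bases of the 425 bp shared by the 4 lists (chr11:108935274-108935573, plus strand) are shown because the peak recurs in every region away from a start, with matches to the TCF/LEF core letters CTTTGA or CTTTGT on either strand in capitals.
Axin2 intronic peak: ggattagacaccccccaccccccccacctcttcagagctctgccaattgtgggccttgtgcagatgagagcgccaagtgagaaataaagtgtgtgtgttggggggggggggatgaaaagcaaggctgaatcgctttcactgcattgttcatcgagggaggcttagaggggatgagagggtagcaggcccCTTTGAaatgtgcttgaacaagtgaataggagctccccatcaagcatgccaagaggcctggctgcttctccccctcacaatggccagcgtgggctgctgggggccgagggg

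It held 1 such match, and 25.4% of the central 300-base windows of 21439 CTX peaks held at least 1. Among the promoters printed above, Wnt8b held 1 match and Wnt3a and Wnt7a none, against 27.6% of all promoters of that length with a match.

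The R-spondins were marked in every list but at different levels. Rspo2 (chr15:43020794-43170826, minus strand) had 1 peak over its 3 neighbouring TSSs, of 938, 1309, 1519 and 1061 bp in MGE, LGE, CGE and CTX, at percentiles 61.7, 63.5, 68.5 and 66.7. These 4 ranks lie within 6.85 points. Rspo3 (chr10:29452416-29535867, minus strand) varied more, with 747, 3012, 3029 and 1598 covered bases in MGE, LGE, CGE and CTX, and percentiles of 51.5, 96.0, 94.9 and 86.6. It was thus lowest in MGE, and LGE and CGE were near each other, with a peak of 3012 or 3029 bp over the 5′ end. In CTX the same stretch held 3 separate peaks of 429, 466 and 703 bp, which covered the TSS and the start of the non-coding Gm48159. The MGE peak of 747 bp covered the TSS alone. The cortex markers were likewise lowest in MGE (summed covered bases 4596, against 19115 to 26187 in the other lists), and the part of this in the Rspo3 difference was not tested.

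**Figure D3:**
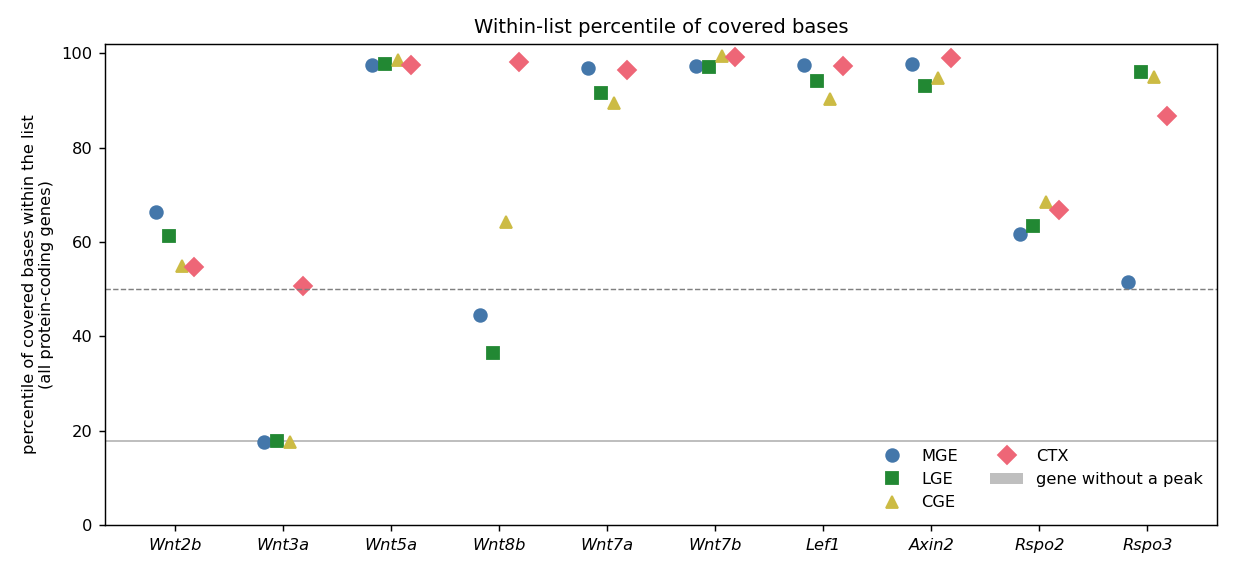
Percentile of covered bases among all protein-coding genes of the same list (vertical axis, 0 to 100) for the 10 genes in MGE, LGE, CGE and CTX (symbols), with a dashed line at 50 and a grey band at 17.5 to 18.1, where genes without a peak stand. Wnt5a, Wnt7b, Lef1 and Axin2 lie above 90 in all 4 lists, Wnt8b spreads from 36.5 to 98.2, and Wnt3a leaves the grey band in CTX alone.

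Set side by side, the hem ligands differed among themselves more than they differed as a group. The percentile was highest in CTX for 2 of the 4 hem ligands (Wnt3a and Wnt8b) and for 1 of the other 6 (Axin2), against 31.4% of all genes with a peak. It was highest in MGE for 3 members, in LGE for 1 and in CGE for 3, against 32.9%, 18.5% and 17.2%. By covered bases, the highest list was MGE for 1 member, LGE for 2, CGE for 4 and CTX for 3, against 4.88%, 16.3%, 72.7% and 4.99%. Without MGE, CTX ranked above LGE and CGE for 5 of the 10 members, against 53.8%. Median peak width in MGE (563 bp) was nearer to CTX (701 bp) than LGE and CGE were (1168 and 1240 bp). The median of the CTX percentile minus the mean GE percentile was 16.2 points over the hem ligands, with values from −6.08 (Wnt2b) to 49.8 (Wnt8b). Over the other 6 it was 3.44, from 1.31 (Wnt7b) to 5.81 (Rspo3), and over all protein-coding genes 0.390. The hem median lies between a pair of high and a pair of low values and describes none of its genes. The median percentile of the hem ligands was 76.1 in CTX and 48.9 to 59.5 in the GE lists, and that of the other 6 was 96.9 in CTX and 92.6 to 97.1 in the GE lists. A percentile of at least 90 in all 4 lists was reached by Wnt5a, Wnt7b, Lef1 and Axin2, 1 hem ligand and 3 others, against 5.69% of genes. The lists were also held to the 17284 peaks of highest fold, which is the whole LGE list and so cut only the other lists. Wnt5a, Wnt7a and Wnt7b then lost their peaks in both MGE and CTX, Wnt2b in CTX and Wnt7b also in CGE. Both medians turned negative (−4.13 and −3.01).

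A CTX percentile at least 30 points above each GE list, a bound chosen after the values were seen, was found for 24 of the 14900 genes with a peak in any list, or 0.161%. Their number was 39 by the covered share of the window, 47 with the MGE list left out and 80 with percentiles taken among genes with a peak. Wnt8b and Wnt3a were the 11th and 16th of the 24, and no other member reached it. The same lead over the other 3 lists was held by 13 genes in MGE, 18 in LGE and 66 in CGE. Lmx1a, a transcription factor of the hem and choroid plexus, was the 6th of the 24, with 1503 covered bases in CTX against 575 to 866 in the GE lists. The other hem and choroid plexus markers did not share this lead: Msx1 was 10.1 points higher in CTX than in any GE list, Msx2 and Bmp4 were higher in CGE, Gdf7 was lowest in CTX of the 4 lists by covered bases, and Ttr, the choroid plexus marker, had no peak. Over these 6 markers the summed covered bases were 1771, 4312, 6078 and 4291 in MGE, LGE, CGE and CTX, and their part in the Wnt8b and Wnt3a values was not tested. The 4 microglial markers had no peak in any list, and 2 or 3 of the 4 meningeal and of the 4 endothelial markers had 1 in each list.

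**Figure D4:**
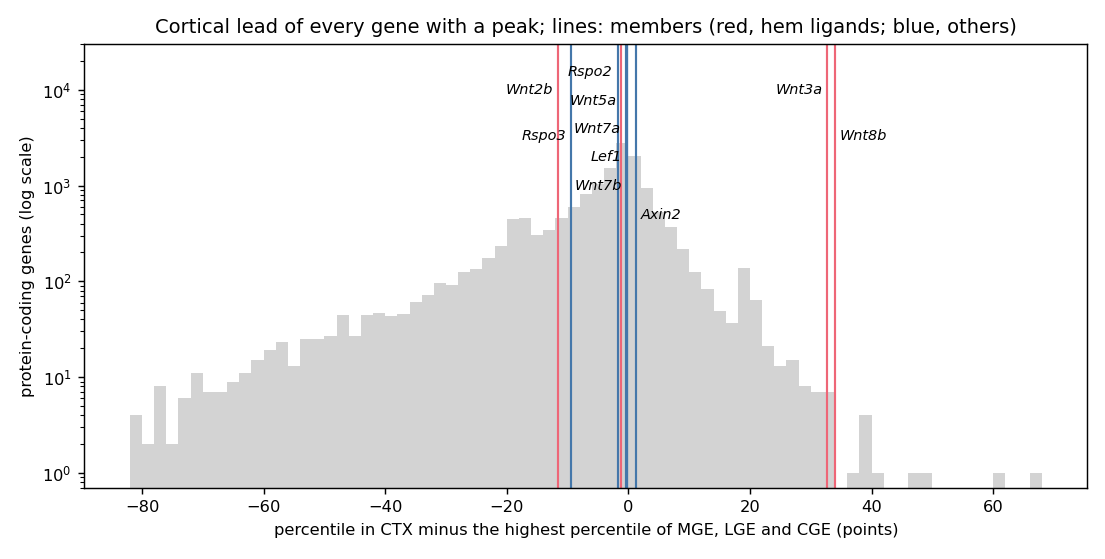
Number of protein-coding genes (vertical axis, log scale) by the percentile in CTX minus the highest percentile of MGE, LGE and CGE, in points, for the 14900 genes with a peak in any list, with lines at the hem ligands (red) and the other 6 members (blue). Wnt3a (32.7) and Wnt8b (33.9) lie in the sparse right tail with 24 genes at 30 or more, and the other 8 members lie between −11.7 and 1.19.

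The remaining genes of the pathway were described by role. Of 70 such genes, 64, 67, 66 and 60 were marked in the respective lists of MGE, LGE, CGE and CTX, 59 in all 4, and none led by 30 points in CTX. The 9 cytoplasmic transducers (Ctnnb1, Dvl1 and others), the 7 nuclear factors, the 6 feedback genes and the 2 secretion genes had a peak in every list. So did 19 of the 20 receptors and co-receptors, the exception being Lgr6, an R-spondin receptor, which had a peak in MGE and LGE. The CTX percentile was highest for 25 of the 70, beside the 31.4% of all genes with a peak. These 25 included 8 of the receptors. Of the 11 secreted antagonists, Dkk4 had no peak in any list and Sfrp5 had a peak in LGE and CGE.

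Of the 13 ligands that are not members, CTX marked 7, MGE marked 9, and LGE and CGE marked 12 each, with 6 in all 4 lists. Wnt3, Wnt4, Wnt8a and Wnt9b had a peak in LGE and CGE, Wnt10a and Wnt10b in every list but CTX, and Wnt1 in MGE and CTX. Wnt10b stood at percentile 95.1 in CGE with 3059 covered bases, against 131 in MGE, 318 in LGE and none in CTX. Among all 19 Wnt genes, 13 were marked in CTX, 14 in MGE, 17 in LGE and 17 in CGE, and 11 in all 4, beside 63.8%, 65%, 64.2%, 64.6% and 61.3% of protein-coding genes. Wnt3a was the only ligand marked in CTX and in no GE list. Of the R-spondins that are not members, Rspo1 had a peak in all 4 lists and Rspo4 in MGE alone.

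**Figure D5:**
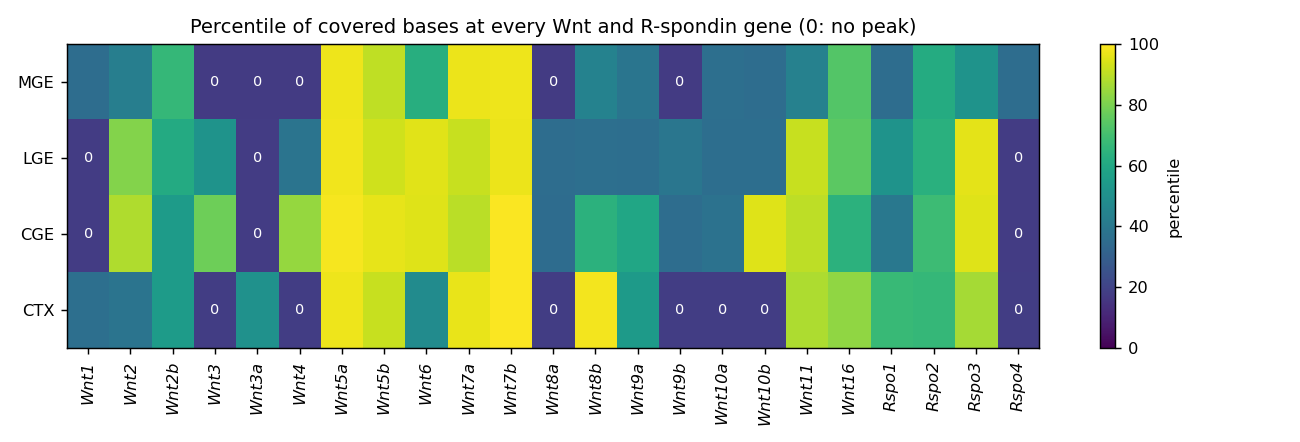
Percentile of covered bases (colour scale, 0 to 100) of the 19 Wnt and 4 R-spondin genes (columns) in MGE, LGE, CGE and CTX (rows), with 0 written where the list has no peak for the gene. Wnt3a is the only column with a 0 in every row but CTX, and the CTX row has 0 at 6 Wnt genes.

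The pathway genes with the pattern nearest to each hem ligand, by the mean absolute difference of the 4 percentiles over 79 candidates, were as follows. Between 3 and 7312 of all protein-coding genes were as near. For Wnt8b they were Sp5, a transcription factor induced by Wnt signalling, at 10.0 points, and the Wnt5a receptor Ror2 at 13.6, with 6 and 56 protein-coding genes as near. Sp5 resembled Wnt8b in MGE, LGE and CTX (39.4, 40.7 and 95.1) but not in CGE (92.0). For Wnt3a they were Wnt1 at 8.02 points and Dkk4 at 8.12, with 249 and 7312 as near, and Dkk4 had no peak in any list. For Wnt5a they were Wnt7b at 0.875 and Bcl9, a β-catenin cofactor, at 0.972, with 106 and 152 as near. For Wnt2b they were the R-spondin receptor Lgr5 at 1.11 and Pygo2 at 5.23, with 3 and 794 as near. Each likeness rests on 4 lists.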

How the data were processed

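H3K4me3 CUT&Tag samples were assigned to regions from their titles. The authors mapped the paired reads to GRCm38/mm10 (Bowtie2), took out blacklisted regions and duplicates (Picard), merged the replicates of a region with SAMtools and called broad peaks with MACS, whose version, threshold and control are not given in the sources used here. The deposited values are a fold enrichment, a ratio of merged reads to the caller's background. The caller also gave the deposited −log10 q, used to describe and filter peaks, and a deposited score of 10 times that value, which was not used. Peak positions were the main measurement. Peak numbers skip 33 times in the MGE list, 59 in LGE, 64 in CGE and 31 in CTX, so some called peaks are not in the lists used here. The paper gives the sequencing depth of each replicate, but the reads behind a single peak are unknown, so no counting interval could be given.

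Peaks sharing at least 1 bp with the 5 kb either side of any TSS of GENCODE M21 (55450 genes, 21951 protein-coding) were counted, and covered bases were taken over the union of these windows. Ties in a percentile were split evenly. Python 3.11.15, numpy 2.4.6, pandas 2.3.3 and matplotlib 3.10.9 were used, and the interval code was tested on simulated peaks. No test between regions was run. Coordinates are 1-based. Promoter sequences came from RefSeq (GRCm38.p6), cut to the 250 bases before the start.

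The 10 members and all gene lists were chosen with earlier results of these data known. Genes named were the 10 members, pathway genes with a peak in no list or in 1, 2 or 3 lists, the 2 pathway genes nearest in pattern to each hem ligand, genes whose TSS is nearest a member's peak, and the marker lists (cortex, GE, MGE, hem and choroid plexus, meninges, endothelium, microglia). The examples given of a role and the genes with a lead of 30 points were named after their values were seen. Alternatives changed the peaks used, the window, the TSS, the overlap, the measure and the reference of the percentile.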

Additional observations from a re-analysis of the deposited data

How the results depend on the processing

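No paired analysis was possible because peaks were called on the merged replicates of a region, and for the same reason no replicate could be left out. Of 15 alternative settings, 13 were planned and 2, only peaks over a TSS and the MGE list left out, were chosen after seeing the data, as was the bound of 30 points. The members with a peak in CTX fell from 10 to 6 with lists of equal length by highest fold, which also took MGE from 9 to 6 and CGE from 9 to 8, and under every other setting were 9 or 10. Members highest in CTX rose from 3 to 5 when peaks less than 1 kb apart were joined and with the MGE list left out, with 3 of the other 6 in both cases. It was 2 of the other 6 with a −log10 q of at least 2, lists of equal length by −log10 q and a 2 kb window. It was 1 of the hem ligands with the widest peak.

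The median of the CTX percentile minus the mean GE percentile is given for hem ligands and for the other 6 in that order. It was −4.13 and −3.01 with lists of equal length by fold, the only setting that turned both. It was 15.2 and 3.28 with a −log10 q of at least 2, 14.3 and 2.94 with equal length by −log10 q, 12.6 and 3.12 with the common minimum width of 243 bp, and 24.8 and 3.93 with peaks joined. With at least 50% of the peak in the window it was 16.2 and 3.39, with a 2 kb window 17.0 and 2.56, with 10 kb 14.8 and 3.99, and with the gene 5′ end only 16.6 and 2.61. Only peaks nearest the gene's own TSS gave 17.1 and 2.88, percentiles among genes with a peak 10.9 and 5.29, the covered share of the window 22.8 and 3.42, the widest peak 3.01 and 2.74, only peaks over a TSS 0.409 and 2.53, and the MGE list left out 16.0 and 2.94.

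The lead of Wnt8b in CTX became −9.84 with the widest peak, since its CTX bases are split over 5 peaks. Wnt8b and Wnt3a both kept a lead of 30 points under 9 settings, Wnt3a alone under 2 (equal length by fold, 2 kb), Wnt8b alone under 3 (common minimum width, percentiles among genes with a peak, only peaks over a TSS), and neither with the widest peak. Of 299 values recomputed, 115 stayed the same or, for counts, within 1.5-fold, and 184 differed, with no replicate error to judge them by. Leads near 0 also changed sign, that of Lef1 under 8 of the 15 settings, Axin2 under 3 and Wnt7a under 1, and that of Rspo3 (−9.38) became 1.92 with peaks joined. The lack of replicate lists limits every statement on size.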

Other observations

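Peaks farther than 5 kb from any annotated TSS of the members, within the gene or 20 kb of it and nearest to it among protein-coding genes, were counted apart. The share of all protein-coding genes with such peaks was not computed, so these counts have no background beside them. Wnt3a, unmarked near its TSS in the GE lists, had a peak within the gene about 26 kb from its 5′ end in all 4 lists. This peak was 921, 1320, 1250 and 313 bp wide in MGE, LGE, CGE and CTX. By width alone, the GE lists had the wider peaks at this place, in the reverse of the order near the TSS. By fold, CTX (5.52) stood above MGE (5.10) and LGE (4.99) and below CGE (5.70). Its −log10 q of 6.09 was above MGE (5.60) and below LGE (14.5) and CGE (28.6). Lef1 had 3 peaks within the gene of 1045, 677 and 583 bp in CTX, 2305 bases in all, with −log10 q of 5.32, 1.91 and 2.17. Beside these it had a peak of 169 bp in MGE (−log10 q 1.36) and none in LGE or CGE. Wnt2b had a peak about 6 kb upstream in every list, of 488, 609, 535 and 321 bp in MGE, LGE, CGE and CTX, each with a fold above that of its promoter peak (4.56, 5.76, 5.43 and 5.26 against 4.06, 4.11, 5.02 and 3.49). By −log10 q this upstream peak was below the promoter peak in CGE (13.5 against 19.2) and above it in the other lists. Wnt7a had a peak in every list about 65 kb from its 5′ end, beyond the 3′ end of the gene, 1056 bp wide in LGE, 754 in CGE, 400 in MGE and 175 in CTX. Wnt5a, Wnt7b and Rspo3 had no such peak in any list.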
